A study of Mus musculus with 17 samples.

Results

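The genes described here were 10 genes that macrophages express: Adgre1, Csf1r, Cd68, Mrc1, Cd163, Vsig4, Trem2, Clec7a, Itgax and Lyz2. They were chosen by name, as commonly used macrophage genes, with earlier results of these data known. Each was followed by summing the transcripts assigned to it in all 17 kidney libraries. They were 10 of 35971 genes in the deposited tables. All 10 were among the 17011 genes with enough reads to be tested, Vsig4 only through the few libraries where it was highest.

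The libraries came from whole mouse kidneys in a model of TFE3-rearranged renal cell carcinoma, taken at 8 months of age and sequenced as mRNA. Every mouse, controls included, carried a conditional PRCC-TFE3 allele that stays silent until Cre recombinase removes a stop cassette, and the Cre was driven by the promoter of Cadherin 16 (KSP-Cre), which is active in kidney epithelial cells. Macrophages were therefore not the cells in which the alleles were meant to recombine. The 5 groups were Cre(−) mice without Cre (n = 4, of which replicates 1 and 2 also carried homozygous floxed Hif1a and replicates 3 and 4 carried no floxed Hif allele), PRCC-TFE3 KI mice with Cre (n = 3), PRCC-TFE3 KI; Hif1α KO mice with homozygous floxed Hif1a (n = 4), PRCC-TFE3 KI; Hif2α KO mice with homozygous floxed Hif2a (n = 3), and PRCC-TFE3 KI; DKO mice with both floxed genes (n = 3). In these bulk libraries, a change in the number of macrophages and a change in RNA per macrophage cannot be told apart, nor can macrophage RNA be told apart from RNA of the same gene made in epithelial cells. The library numbers in the labels, 1 to 21, largely followed the groups, so any order effect and the group cannot be told apart.

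Macrophages are phagocytes that settle in tissues before birth and are later joined by cells derived from blood monocytes. Their survival depends on the receptor Csf1r and its ligands Csf1 and Il34, and the resident macrophages of the mouse kidney are known for carrying Adgre1 (F4/80). Scavenger and lectin receptors such as Cd163, Mrc1 and Clec7a take up proteins, sugars and microbes, whereas Cd68 and Lyz2 belong to the endosomal, lysosomal and granule compartments. TFE3 belongs to the MiT/TFE family of transcription factors, known as activators of lysosomal genes. Lysosomal genes are not read by macrophages alone, and whether other cells gave part of the Cd68 RNA here was not tested.

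Library totals ran from 16504419 to 24668827 expected counts, with a median of 18635282, and a count of 3 in a library stood for 0.117 to 0.206 CPM. Levels below are CPM, counts divided by the library total, scaled by edgeR's TMM method, unless TPM (which also corrects for transcript length) is named. All differences are log2 fold changes with their standard error (SE), and adjusted p-values are Benjamini-Hochberg values over all 17011 genes from edgeR's quasi-likelihood test, with 0.05 as the threshold. Of the 4 targeted genes (Tfe3, Prcc, Hif1a and Epas1), 3 were higher and 1 was lower in PRCC-TFE3 KI than in Cre(−) kidneys. The shares over all genes were 31.6% and 29.3%. Hif1a had the largest absolute difference, followed by Tfe3, which was 0.65 log2 units higher (adjusted p = 3.34e-06). In DKO against PRCC-TFE3 KI, 1 of these 4 genes passed as lower, where 6.19% of all genes did. The part of these 4 genes in the members' levels was not tested. Hif1a was 163 to 198 CPM in the Hif1α KO libraries, 174 to 203 CPM in DKO and 184 to 232 CPM in PRCC-TFE3 KI, which overlapped, and Epas1 (the gene of HIF2α) was 136 to 149 CPM in Hif2α KO, 155 to 165 CPM in DKO and 173 to 192 CPM in PRCC-TFE3 KI, lower in all 6 knockout libraries without passing the threshold (adjusted p = 0.0788 and 0.208). A sum over whole genes does not show the loss of a floxed part in epithelial cells alone, so these levels do not check the knockout labels, and the knockout groups below are named as labelled. The libraries differed in other tissue and immune signals: summed adipocyte marker CPM was 1742 in PRCC-TFE3 KI replicate 2 against 6.16 to 254 in the other 16 libraries, and within the PRCC-TFE3 KI group the summed pan-leukocyte markers ran from 32.1 in replicate 3 to 134 in replicate 2. The part of these signals in the results below was not tested.

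Promoter sequences were looked at because members that moved together might share sequence upstream of their start. RefSeq (GRCm38.p6) held an upstream region for 8 of the 10 genes, all but Adgre1 and Csf1r. The 250 bases before each RefSeq start were searched, and the Mrc1 and Lyz2 regions are printed cut to 228 and 201 bases. The letters searched, on both strands, were CACGTG (an E-box), TCACGTGA (the CLEAR-type element of lysosomal genes), TCATGTGA (the M-box of MiT factors), ACGTG (the core of a hypoxia response element), and AGGAAGT and GAGGAA (forms of the ETS site that the myeloid factor Spi1 reads). The regions shown are those of Cd68, whose summed counts had the largest fold between PRCC-TFE3 KI and Cre(−) kidneys, of Trem2, whose protein-coding transcripts were nearly absent from Cre(−) kidneys, and of Mrc1 and Lyz2, which held the longer ETS form. Capitals mark the ETS letters or their reverse complement, each sequence runs 5′ to 3′ on the gene's own strand, and each ends at or shortly before the start of the gene given with its values below.
Cd68 (chr11:69666171-69666420, minus strand): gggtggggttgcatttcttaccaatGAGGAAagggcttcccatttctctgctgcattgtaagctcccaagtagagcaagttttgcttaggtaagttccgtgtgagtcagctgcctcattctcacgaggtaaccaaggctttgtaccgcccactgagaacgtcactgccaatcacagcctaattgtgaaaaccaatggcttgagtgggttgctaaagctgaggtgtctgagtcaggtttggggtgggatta
Trem2 (chr17:48346151-48346400, plus strand): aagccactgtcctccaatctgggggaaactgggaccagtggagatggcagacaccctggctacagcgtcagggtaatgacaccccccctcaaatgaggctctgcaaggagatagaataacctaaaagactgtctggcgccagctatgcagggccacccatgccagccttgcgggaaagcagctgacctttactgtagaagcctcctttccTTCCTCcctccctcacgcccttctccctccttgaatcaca
Mrc1 (chr2:14229164-14229391, plus strand): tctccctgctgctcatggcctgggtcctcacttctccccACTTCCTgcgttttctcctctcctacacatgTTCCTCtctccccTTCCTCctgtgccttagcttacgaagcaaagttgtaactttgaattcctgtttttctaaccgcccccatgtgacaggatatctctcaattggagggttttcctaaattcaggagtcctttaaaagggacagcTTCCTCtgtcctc
Lyz2 (chr10:117282322-117282522, minus strand): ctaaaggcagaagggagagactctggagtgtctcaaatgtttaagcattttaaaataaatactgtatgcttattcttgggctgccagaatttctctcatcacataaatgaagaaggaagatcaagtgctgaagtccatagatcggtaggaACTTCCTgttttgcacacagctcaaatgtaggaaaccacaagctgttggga
GAGGAA was found in 5 of the 8 regions, those of Cd68, Mrc1, Vsig4, Trem2 and Clec7a, and in 23.3% of 32851 mouse promoters. Clec7a had 2 starts, and a match at either was enough, whereas the shares over all promoters count each start by itself. AGGAAGT was found in 2 of the 8, Mrc1 and Lyz2, and in 7.69% of all promoters. None of the 8 held CACGTG (6.02% of all promoters), TCACGTGA (0.785%), TCATGTGA (0.846%) or ACGTG (16.6%). A match is a description of the letters and not of a bound site, and a missing match says only that these letters were not in this window.

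In Cre(−) kidneys the members differed widely in level. Per transcript length, Lyz2 (42.5 ± 10.6 TPM, SD, n = 4) and Csf1r (35.3 ± 1.43 TPM) were the 2 highest, and their ranges overlapped. Cd68 followed at 4.90 ± 1.14 TPM, then Mrc1 (1.90 ± 0.198 TPM), Itgax (1.79 ± 0.562 TPM), Adgre1 (1.74 ± 0.374 TPM) and Clec7a (1.36 ± 0.229 TPM), neighbours that did not differ beyond their spread. Cd163 (0.329 ± 0.120 TPM), Trem2 (0.235 ± 0.0698 TPM) and Vsig4 (0.0487 ± 0.0380 TPM) were the 3 lowest, and of these Vsig4, with 0 to 2 counts a library, was near the limit of detection. In PRCC-TFE3 KI kidneys the order began instead with Cd68 at 1630.2 ± 100.1 TPM (n = 3), above Lyz2 at 400.3 ± 108 TPM and Csf1r at 37.1 ± 1.89 TPM. Cd68 made up 5.44 ± 1.14% of the summed TPM of the 10 genes in Cre(−) kidneys and 77.1 ± 4.91% in PRCC-TFE3 KI kidneys. The share held by Csf1r was 39.7 ± 5.42% in Cre(−) and 1.75 ± 0.0827% in PRCC-TFE3 KI kidneys. In the knockout groups Cd68 held 60.2 ± 7.18% (Hif1α KO, n = 4), 62.2 ± 4.72% (Hif2α KO, n = 3) and 51.6 ± 6.08% (DKO, n = 3).

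**Figure D1:**
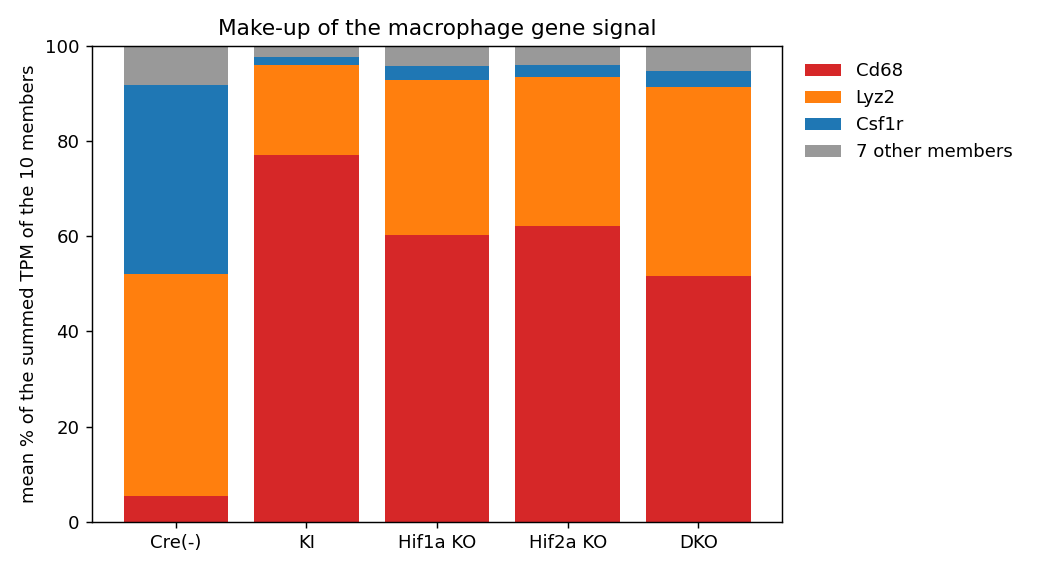
Share of the summed TPM of the 10 macrophage genes (percent, mean over the libraries of each of the 5 groups, stacked from 0) held by Cd68, Lyz2, Csf1r and the 7 others together. Cd68 takes 5.44% in Cre(−) and 77.1% in PRCC-TFE3 KI kidneys, and the share of Lyz2 goes from 46.7% to 18.9%.

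Expression of PRCC-TFE3 in the kidney epithelium was compared with its absence first (PRCC-TFE3 KI against Cre(−), n = 3 and 4). Of the 10 genes, 9 were higher and none was lower past the threshold, against 31.6% of all genes tested that were higher and 29.3% that were lower. The exception was Csf1r, and the 9 include Vsig4, which passed the count filter only through its highest libraries. The median over the 10 genes was 2.38 log2 units and the median over all genes was 0.03. DESeq2's Wald test called all 10, with the same 9 as higher and Csf1r as lower (adjusted p = 0.0418). Of all 17011 genes it called 5331 higher and 5055 lower.

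Csf1r (chromosome 18, plus strand, ENSMUSG00000024621.16) encodes the receptor for Csf1 and Il34 on macrophages and monocytes. Its level was 101, 89.2, 97.7 and 100.1 CPM in the 4 Cre(−) libraries and 84.6, 82.8 and 84.2 CPM in the 3 PRCC-TFE3 KI libraries. All 3 PRCC-TFE3 KI libraries lay below all 4 Cre(−) libraries, by a small step. The difference was −0.21 (SE 0.0919) and missed the threshold (adjusted p = 0.0603). On the TPM scale, where the median of all genes shifted to 0.38, the sign of Csf1r turned, to 0.068 (adjusted p = 0.507 by limma). By limma Csf1r also passed as higher than in Cre(−) in Hif2α KO (0.26, adjusted p = 0.0159) and DKO (0.25, adjusted p = 0.0177). Both values lay below the median of all genes on that scale, 0.427 in Hif2α KO and 0.455 in DKO. In the Hif1α KO libraries it was 96.4, 80.3, 105 and 95.1 CPM, in Hif2α KO 92.3, 113 and 89.3 CPM, and in DKO 90.1, 96.8 and 93.0 CPM. These 3 groups overlapped with Cre(−), and in the fit of all 17 libraries by edgeR's quasi-likelihood test Csf1r passed the threshold in no comparison. Its lower level in PRCC-TFE3 KI passed in a fit of these 2 groups alone (adjusted p = 0.0387) and without Cre(−) replicate 2 (adjusted p = 0.0440).

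The ligands of this receptor were both higher with PRCC-TFE3. Csf1, the colony-stimulating factor of macrophages, was 15.4, 13.7, 16.1 and 15.0 CPM in Cre(−) and 73.6, 69.9 and 69.1 CPM in PRCC-TFE3 KI kidneys (log2 difference 2.24, adjusted p = 1.08e-08). Il34, which binds the same receptor, was 5.76, 6.37, 6.82 and 6.44 CPM in Cre(−) and 45.7, 40.3 and 52.6 CPM in PRCC-TFE3 KI kidneys (2.86, adjusted p = 1.54e-09). Neither ligand passed the threshold between any knockout group and PRCC-TFE3 KI by edgeR or DESeq2, with 1 ligand lower at an unadjusted p under 0.05 in Hif1α KO and 1 in DKO.

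Adgre1 (chr17:57358691-57483527, plus strand, ENSMUSG00000004730.15) encodes F4/80, the surface protein that defines mouse macrophages. It was 6.31, 5.14, 3.91 and 4.36 CPM in Cre(−) and 12.6, 17.8 and 12.0 CPM in PRCC-TFE3 KI kidneys. The groups did not overlap, and PRCC-TFE3 KI was 2.88-fold higher (log2 1.52, SE 0.19, adjusted p = 5.1e-06). The knockout groups were higher still: Hif1α KO libraries read 26.2, 18.2, 26.7 and 21.2 CPM, Hif2α KO libraries 22.9, 27.7 and 22.2 CPM, and DKO libraries 20.6, 27.3 and 24.3 CPM. All 10 knockout libraries lay above all 3 PRCC-TFE3 KI libraries.

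Itgax, Clec7a, Mrc1 and Lyz2 rose by smaller or intermediate steps. Itgax (chr7:128129547-128150657, plus strand, ENSMUSG00000030789.9) encodes CD11c, an integrin subunit of dendritic cells and many macrophages. It was 7.75, 5.67, 3.71 and 4.29 CPM in Cre(−) and 13.6, 13.5 and 3.65 CPM in PRCC-TFE3 KI kidneys. PRCC-TFE3 KI replicate 3 lay below every Cre(−) library while the other 2 lay above them, so the groups overlapped, and the difference of 0.93 (SE 0.34, adjusted p = 0.0254) was lost without PRCC-TFE3 KI replicate 1 (adjusted p = 0.132) or 2 (0.134) and without Cre(−) replicate 3 (0.0715) or 4 (0.0646). With only the 2 Cre(−) libraries that carried floxed Hif1a as controls its adjusted p was 0.208. The same PRCC-TFE3 KI replicate 3 had the lowest Ptprc (CD45, on all white blood cells) of the 17 libraries, at 13.7 CPM against 27.8 and 61.7 CPM in replicates 1 and 2. Clec7a (chr6:129461591-129472779, minus strand, ENSMUSG00000079293.11), the beta-glucan receptor dectin-1, was 3.02, 2.52, 1.52 and 2.84 CPM in Cre(−) and 8.33, 10.8 and 4.28 CPM in PRCC-TFE3 KI kidneys. The groups did not overlap, and the fold was 3.15 (log2 1.65, SE 0.29, adjusted p = 0.00013). Almost all Clec7a counts were assigned to the transcript that the annotation calls a polymorphic pseudogene. Itgax shares 5.01% of its 75-base stretches with the related integrin gene Itgad, so a small part of its reads could be split between them.

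Mrc1 (chr2:14229392-14332057, plus strand, ENSMUSG00000026712.3) encodes CD206, the mannose receptor. It was 8.98, 6.85, 7.81 and 8.27 CPM in Cre(−) and 24.3, 37.7 and 33.3 CPM in PRCC-TFE3 KI kidneys, which was 3.99-fold higher (log2 1.99, SE 0.14, adjusted p = 1.29e-08). Lyz2 (chr10:117277331-117282321, minus strand, ENSMUSG00000069516.8) encodes the lysozyme of macrophages and neutrophils. It was 68.7, 36.7, 44.1 and 44.7 CPM in Cre(−) and 242, 411 and 330.3 CPM in PRCC-TFE3 KI kidneys, 6.76-fold higher (log2 2.76, SE 0.20, adjusted p = 2.29e-08). Neither gene's groups overlapped. Lyz2 shares 5.96% of its 75-base stretches with its neighbour and near copy Lyz1, the lysozyme of Paneth cells, and Lyz1 itself stayed below 6 CPM in every library.

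Cd163, Vsig4 and Trem2 were scarce in Cre(−) kidneys. Cd163 (chr6:124304656-124330527, plus strand, ENSMUSG00000008845.9), the haemoglobin scavenger receptor of resident macrophages, was 1.65, 0.964, 0.662 and 1.52 CPM in Cre(−) and 9.31, 20.8 and 33.3 CPM in PRCC-TFE3 KI kidneys. Every PRCC-TFE3 KI library was above every Cre(−) library, with a wide spread among the 3 mice, and the fold was 17.7 (log2 4.14, SE 0.40, adjusted p = 3.68e-07). Vsig4 (chrX:96247203-96293438, minus strand, ENSMUSG00000044206.3), a complement receptor of resident macrophages, had 1, 2, 0 and 1 counts in the 4 Cre(−) libraries and 4, 40 and 35 counts in the 3 PRCC-TFE3 KI libraries. The first of these 3 was close to the Cre(−) libraries and the other 2 were not. With 79 counts against 4 over the groups, the CPM ratio was 23.7 (exact 95% interval of the counts 8.90 to 89.2, which covers counting error only and not the spread between mice), and edgeR's adjusted p was 0.00191.

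Trem2 (chr17:48346401-48354147, plus strand, ENSMUSG00000023992.14) is a lipid-sensing receptor of macrophages and microglia that signals through the adaptor Tyrobp. It was 0.823, 0.750, 0.794 and 0.758 CPM in Cre(−) and 7.82, 9.05 and 7.99 CPM in PRCC-TFE3 KI kidneys, 10.5-fold higher (log2 3.40, SE 0.26, adjusted p = 4.23e-08). The groups were far apart and each was tight. The transcripts behind these levels differed: protein-coding Trem2 transcripts held 7.20% of the gene's counts in Cre(−) and 79.7% in PRCC-TFE3 KI kidneys. Protein-coding counts were 1.19, 0, 2.44 and 0 in the 4 Cre(−) libraries and 104, 134 and 115 in the 3 PRCC-TFE3 KI libraries. Over the groups, 353 counts stood against 3, a CPM ratio of 141 (exact 95% interval of the counts 47.9 to 688). Non-coding Trem2 transcripts, mostly 1 with a retained intron, were 0.727 ± 0.0644 CPM in Cre(−) (n = 4) and 1.68 ± 0.241 CPM in PRCC-TFE3 KI kidneys (n = 3). The split into transcripts was an estimate of the authors' quantification and rested on few reads.

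**Figure D2:**
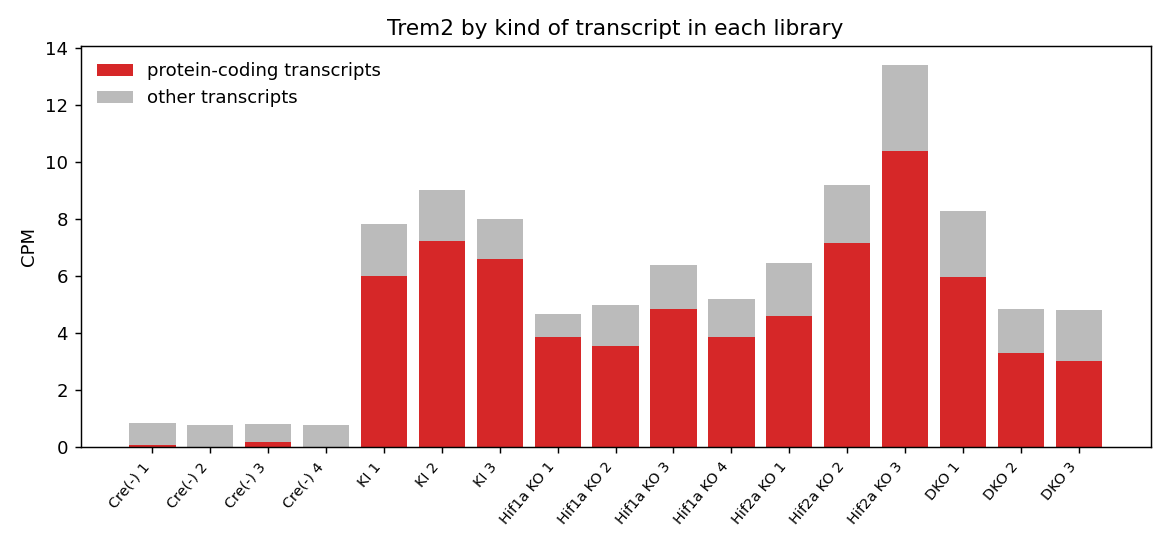
Trem2 CPM in each of the 17 libraries (1 stacked bar per library, from 0), with protein-coding transcripts in red and other transcripts in grey. Red is near 0 in all 4 Cre(−) libraries and averages 6.60 CPM in PRCC-TFE3 KI, while grey averages 0.727 and 1.68 CPM.

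Cd68 (chr11:69664213-69666153, minus strand, ENSMUSG00000018774.13) encodes macrosialin, a glycoprotein of late endosomes and lysosomes. It was 5.76, 4.55, 3.24 and 5.49 CPM in Cre(−) and 1128, 1061 and 1151 CPM in PRCC-TFE3 KI kidneys. The step was 234-fold (log2 7.87, SE 0.25, adjusted p = 1.21e-11), the largest among the members' summed counts. The 3 PRCC-TFE3 KI libraries were close to each other in Cd68, and their Ptprc levels ran from 13.7 to 61.7 CPM. Gpnmb, a lysosomal and melanosomal glycoprotein known as a target of MiT factors, moved in the same direction, from 1.85, 2.14, 0.993 and 1.33 CPM in Cre(−) to 13008, 14211 and 15629 CPM in PRCC-TFE3 KI kidneys. Of 20 lysosomal genes that all cells use, 16 were higher and 2 were lower, against 31.6% and 29.3% of all genes. Hexa (3.41), Psap (2.22) and Mcoln1 (1.66) had the largest log2 differences, and the median was 0.74. The summed lysosomal level was 5164 to 5779 CPM in Cre(−) and 11406 to 13150 CPM in PRCC-TFE3 KI kidneys. The part of this lysosomal change, and the part of white blood cells, in the level of Cd68 was not tested.

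**Figure D3:**
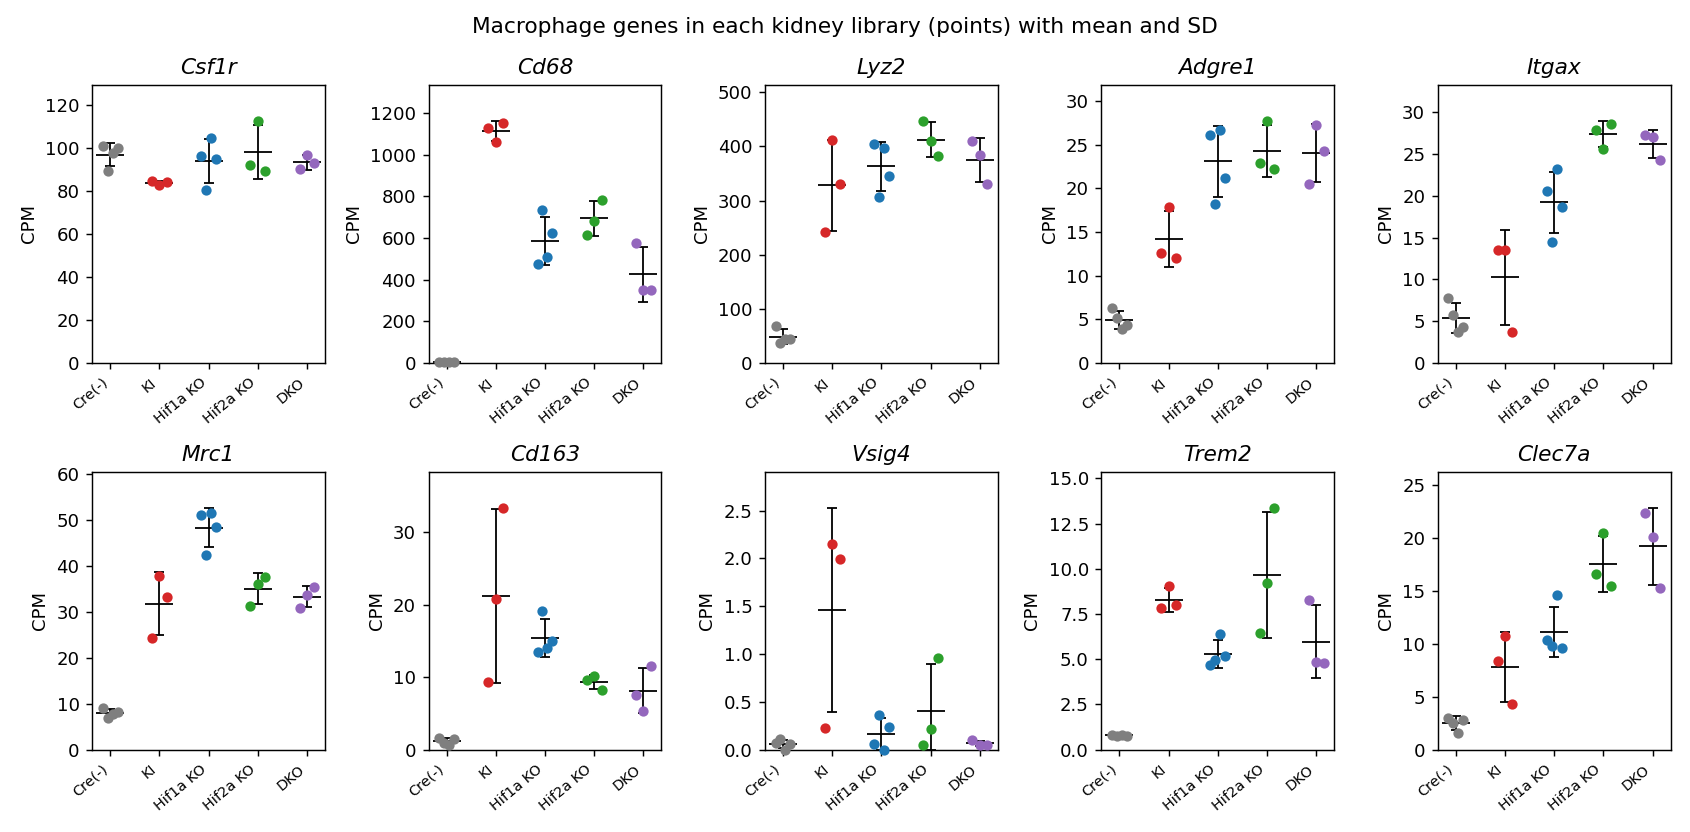
CPM of the 10 macrophage genes in each of the 17 libraries (1 panel per gene with its own linear axis from 0, groups Cre(−), PRCC-TFE3 KI, Hif1α KO, Hif2α KO and DKO from left to right, points are libraries, lines and bars are mean and SD, with the lower bar cut at 0). Cd68 falls from a mean of 1113 CPM in PRCC-TFE3 KI to 425 CPM in DKO, Adgre1 goes from 14.2 to 24.1 CPM, and Csf1r stays between 80.3 and 113 CPM throughout.

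Deletion of Hif1a on the PRCC-TFE3 background was compared with PRCC-TFE3 KI alone (n = 4 and 3), which asks whether the members' levels change when the epithelium lacks this hypoxia factor. The following contrasts with PRCC-TFE3 KI share the same 3 PRCC-TFE3 KI libraries and are not independent of each other. In Hif1α KO kidneys 2 members were higher and 1 was lower, against 2.57% and 2.86% of all genes tested. The Adgre1 levels given above were 1.63-fold higher than in PRCC-TFE3 KI (log2 0.70, SE 0.18, adjusted p = 0.0364). Mrc1 was 51.0, 42.2, 51.5 and 48.4 CPM, above all 3 PRCC-TFE3 KI libraries and 1.52-fold higher (log2 0.60, SE 0.13, adjusted p = 0.0177). Cd68 was 477, 732, 510.0 and 625 CPM, below all 3 PRCC-TFE3 KI libraries (log2 −0.93, SE 0.19, adjusted p = 0.0166). All 3 calls were lost without Hif1α KO replicate 1 or without replicate 3, where 0 of 10 members passed, and in a fit of these 2 groups alone 1 passed. For Cd68 the adjusted p was 0.0534 without replicate 1 and 0.0584 without replicate 3.

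The other members did not pass the threshold in Hif1α KO kidneys. Trem2 was 4.66, 4.93, 6.38 and 5.15 CPM, below all 3 PRCC-TFE3 KI libraries (log2 −0.65, adjusted p = 0.109). Itgax was 20.6, 14.4, 23.2 and 18.7 CPM, above all 3 (0.91, adjusted p = 0.119). Cd163 was 13.4, 19.2, 13.9 and 14.9 CPM, inside the wide range of PRCC-TFE3 KI (−0.46, adjusted p = 0.462). These values show no common direction over the scavenger receptors, the phagocyte surface proteins and Trem2. Vsig4 had 1, 7, 0 and 6 counts (adjusted p = 0.0554), Clec7a was 10.4, 9.76, 14.6 and 9.64 CPM (0.51, adjusted p = 0.284), and Lyz2 was 404, 307, 397 and 345 CPM (0.15, adjusted p = 0.708).

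Deletion of Hif2a was compared in the same way (n = 3 and 3). By edgeR's quasi-likelihood test 0 of 10 members passed the threshold, where 0.741% of all genes were higher and 0.647% were lower. At an unadjusted p under 0.05 there were 6 members, and DESeq2's Wald test called 5, namely Adgre1, Clec7a and Itgax as higher and Cd68 and Cd163 as lower. Over all 17011 genes DESeq2 called 532 higher and 483 lower here. The share of all genes at an unadjusted p under 0.05 was not counted for any comparison. Clec7a was 16.5, 20.5 and 15.4 CPM, above all 3 PRCC-TFE3 KI libraries (log2 1.16, edgeR adjusted p = 0.0532). Itgax was 27.8, 25.6 and 28.6 CPM, also above all 3 (1.42, adjusted p = 0.0532), and Adgre1 differed by 0.78 (adjusted p = 0.0541). Cd68 was 616, 681 and 784 CPM, below all 3 PRCC-TFE3 KI libraries (−0.68, adjusted p = 0.101). Without PRCC-TFE3 KI replicate 1 or without replicate 2 the edgeR count was 2. Cd163 was 9.63, 10.1 and 8.20 CPM (−1.18, adjusted p = 0.103), and Trem2 was 6.44, 9.19 and 13.4 CPM, spread around the PRCC-TFE3 KI level (0.22, adjusted p = 0.66). Mrc1 (31.2, 36.1 and 37.6 CPM) and Lyz2 (447, 409.8 and 382 CPM) overlapped with PRCC-TFE3 KI.

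Members called in DKO kidneys differed from PRCC-TFE3 KI in opposite directions. Compared with PRCC-TFE3 KI (n = 3 and 3), 3 members were higher and 3 were lower in DKO kidneys, against 6.53% and 6.19% of all genes. Higher were 3 surface proteins of phagocytes. Adgre1 was 1.7-fold higher (log2 0.76, SE 0.19, adjusted p = 0.0197). Clec7a was 22.3, 20.1 and 15.2 CPM, 2.46-fold higher (1.30, SE 0.29, adjusted p = 0.0105), and Itgax was 27.3, 27.0 and 24.3 CPM, 2.56-fold higher (1.36, SE 0.35, adjusted p = 0.0208). In each of the 3 genes every DKO library lay above every PRCC-TFE3 KI library. The share of all genes separated in this way was not counted for any comparison. In an edgeR fit of these 2 groups alone, Adgre1 (adjusted p = 0.0558), Clec7a (0.0620) and Itgax (0.101) missed the threshold. Adgre1 also missed it without PRCC-TFE3 KI replicate 1 or 3 or DKO replicate 2 or 3. Itgax missed it without DKO replicate 2 or 3.

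Lower in DKO were Cd68 and the 2 receptors of resident macrophages. Cd68 was 577, 351 and 349 CPM, a 2.62-fold lower level (log2 −1.39, SE 0.21, adjusted p = 0.00209) that still lay far above the 3.24 to 5.76 CPM of Cre(−). Cd163 was 7.50, 5.32 and 11.5 CPM, which overlapped with the 9.31 CPM of PRCC-TFE3 KI replicate 1, at a log2 difference of −1.38 (SE 0.37, adjusted p = 0.0257). Vsig4 had 2, 1 and 1 counts against 4, 40 and 35 in PRCC-TFE3 KI, a CPM ratio of 22.2 in favour of PRCC-TFE3 KI (exact 95% interval of the counts 8.32 to 83.3, adjusted p = 0.0221). For both receptors the difference leaned on PRCC-TFE3 KI replicates 2 and 3, and Vsig4 was tested only because of them and Hif2α KO replicate 3. By edgeR Cd163 also missed the threshold without DKO replicate 1 (adjusted p = 0.0624) or 2 (0.116) and in a fit of these 2 groups alone (0.127). By limma on log2(TPM + 1) and log2(TPM + 0.1) its adjusted p was 0.0548 and 0.0786. The count of 6 was 3 without PRCC-TFE3 KI replicate 3, 2 without DKO replicate 2 and 3 without DKO replicate 3. It was 1 in a fit of these 2 groups alone, where Vsig4 had too few counts to be tested. The lower Cd68 passed under every alternative tried. Trem2 at 8.28, 4.85 and 4.78 CPM (−0.47, adjusted p = 0.216), Mrc1 at 30.9, 33.5 and 35.3 CPM and Lyz2 at 411, 384 and 329.9 CPM overlapped with PRCC-TFE3 KI.

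**Figure D4:**
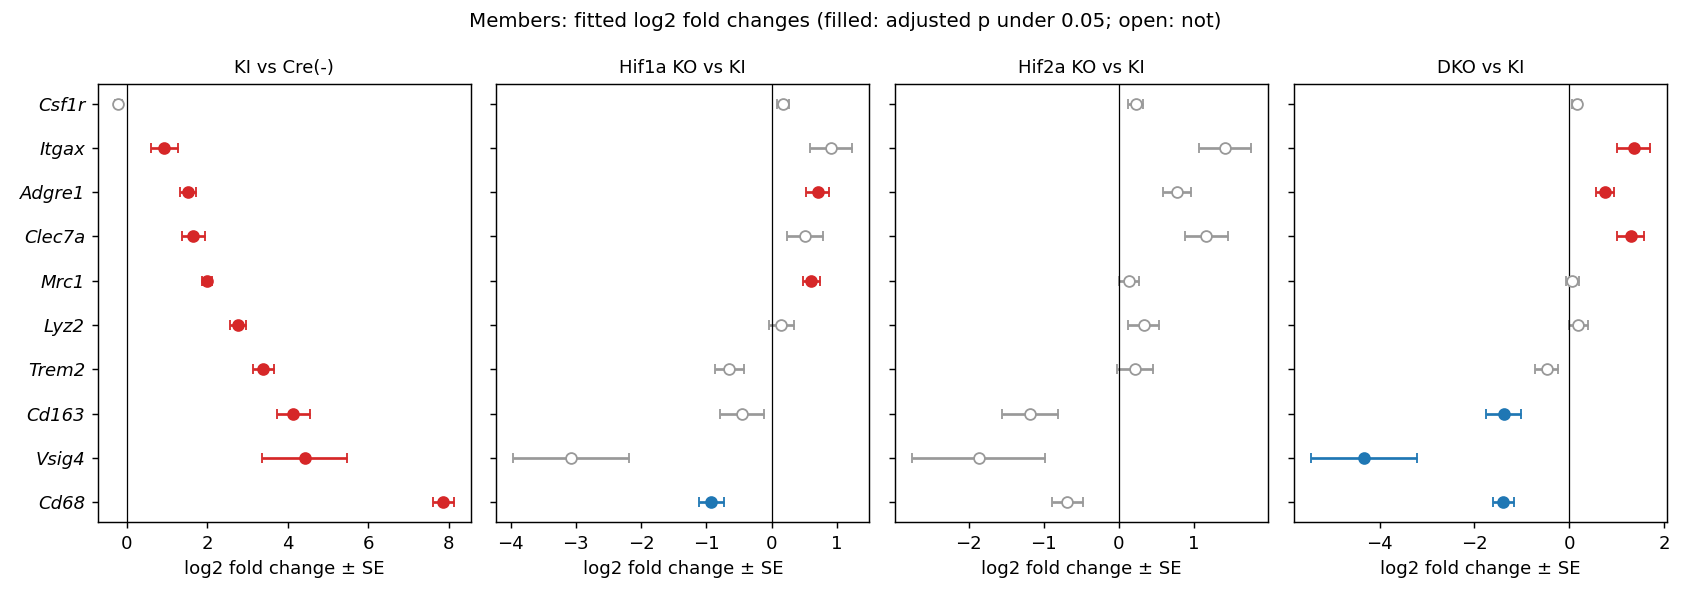
Fitted log2 fold changes of the 10 macrophage genes in 4 comparisons, each with its own horizontal scale (points with bars of ± 1 SE, red or blue and filled where the gene was higher or lower at an adjusted p under 0.05, open where it was not; the position of Vsig4 rests on very few counts). Against PRCC-TFE3 KI, Adgre1, Clec7a and Itgax lie on the higher side and Cd68 on the lower side in all 3 knockout groups, with Cd68 at −0.68 in Hif2α KO and −1.39 in DKO.

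The single knockouts were also set against each other, since the study asks whether the HIF genes differ in their role. By edgeR's quasi-likelihood test 0 of 10 members passed between Hif1α KO (n = 4) and Hif2α KO (n = 3), where 0.429% of all genes did. At an unadjusted p under 0.05 there were 3, Trem2, Mrc1 and Clec7a, and DESeq2 called 2, Mrc1 and Trem2. Of all 17011 genes DESeq2 called 344 higher and 200 lower in this comparison. All 4 Hif1α KO libraries lay below all 3 Hif2α KO libraries for Trem2 (log2 −0.87, adjusted p = 0.0965) and above them for Mrc1 (0.47, adjusted p = 0.106). A term for non-additive change in DKO was called for 0 members by edgeR, with 2 at an unadjusted p under 0.05, Adgre1 and Mrc1. DESeq2 was not run on that term.

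Against Cre(−), most members were higher in each knockout group too. In Hif1α KO, Hif2α KO and DKO kidneys 8 of 10 members were higher, against 31.9%, 32.0% and 30.4% of all genes, and in each group the 2 that did not pass were Csf1r and Vsig4. Cd68 was 123-fold, 146-fold and 89.3-fold higher than in Cre(−). Vsig4 had 0 to 7 counts in the Hif1α KO libraries, 1 to 19 in the Hif2α KO libraries and 1 or 2 in the DKO libraries, which overlapped with the 0 to 2 counts of Cre(−). Without Hif2α KO replicate 1, Vsig4 passed in Hif2α KO against Cre(−) (adjusted p = 0.0247).

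Other macrophage genes were followed as a list of 34, of which 33 could be tested. In PRCC-TFE3 KI kidneys 29 were higher than in Cre(−) and 0 were lower (31.6% and 29.3% of all genes), with a median of 1.85 log2 units. Marco, a scavenger receptor (3.65 against 0.0331 mean CPM), Lyve1, a hyaluronan receptor of some resident macrophages and of lymphatic vessels (9.62 against 0.694), and Cd5l, a secreted protein of tissue macrophages (7.22 against 0.454), had the largest differences. The Marco and Lyve1 means leaned on PRCC-TFE3 KI replicates 2 and 3, and the Cd5l mean on replicate 2, as their levels given further below show. In DKO against PRCC-TFE3 KI the list gave 2 higher (Ctss and Lilra5) and 4 lower (Mertk, Marco, Lyve1 and Cd5l) of 33, where 6.53% and 6.19% of all genes passed, so the 2 higher were at the share over all genes. In Hif1α KO it gave 5 higher and 1 lower (2.57% and 2.86% of all genes), and in Hif2α KO 0 in either direction by edgeR. At an unadjusted p under 0.05 it gave 14 higher and 3 lower in Hif2α KO, and the share of all genes at that p was not counted. DESeq2 called 6 higher and 1 lower there (532 and 483 of all 17011 genes). Of 20 myeloid signalling and lineage genes, 17 were higher and 0 were lower in PRCC-TFE3 KI, against the same 31.6% and 29.3%. They were led by the kinase Syk (3.33), the exchange factor Vav1 (1.84) and the lysosomal protein Laptm5 (1.77).

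Tyrobp, the adaptor through which Trem2 signals, was 7.34, 4.07, 2.85 and 4.17 CPM in Cre(−) and 14.0, 15.0 and 12.0 CPM in PRCC-TFE3 KI kidneys. Spi1 (PU.1), the transcription factor that macrophages need to form, was 4.32, 3.21, 2.38 and 3.66 CPM in Cre(−) and 11.8, 11.8 and 7.93 CPM in PRCC-TFE3 KI. Both passed the threshold (log2 1.57 and 1.63), and neither gene's groups overlapped. In DKO kidneys Spi1 was 18.8, 17.6 and 14.7 CPM, 0.70 log2 units above PRCC-TFE3 KI. The step of these lineage genes with PRCC-TFE3 was near that of Adgre1 (1.52) and Clec7a (1.65), and below that of Cd68 (7.87), Cd163 (4.14) and Trem2 (3.40).

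Genes of lipid-associated, Trem2-type macrophages, of inflammatory activation and of alternative activation were counted separately. Of the 12 Trem2-type genes, 9 were higher and 2 were lower in PRCC-TFE3 KI, against 31.6% and 29.3% of all genes. They were led by Gpnmb (13.1), the lysosomal protease gene Ctsl (4.19) and the fatty acid binding protein gene Fabp5 (3.71). In DKO 4 were lower than in PRCC-TFE3 KI (Gpnmb, Ctsl, Ctsd and Cd63), where 6.19% of all genes were. Those 4 are lysosomal genes that other cells also express. Of 12 inflammatory genes tested, 6 were higher with PRCC-TFE3, against 31.6% of all genes, led by Ccl2 (2.53), a chemokine that attracts monocytes, Tnf (2.37) and Ccl3 (1.80). By edgeR none passed between the knockout groups and PRCC-TFE3 KI, with 2 or 3 higher and 0 or 1 lower at an unadjusted p under 0.05 and at most 2 called by DESeq2. Of 9 alternative activation genes tested, 3 were higher (Chil3, Arg1 and Clec10a), close to the 31.6% over all genes.

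Markers of other cell types were counted beside the shares over all genes, 31.6% higher and 29.3% lower with PRCC-TFE3. All 5 pan-leukocyte genes were higher in PRCC-TFE3 KI (median 1.36), with none past the threshold between the knockout groups and PRCC-TFE3 KI by edgeR or DESeq2 (1 higher in each group at an unadjusted p under 0.05 by edgeR), and their summed CPM was 25.4 to 32.2 in Cre(−), 32.1 to 134 in PRCC-TFE3 KI, 59.7 to 148 in Hif1α KO, 82.6 to 183 in Hif2α KO and 107 to 156 in DKO. Higher and lower counts with PRCC-TFE3 were 4 and 2 of 10 monocyte genes, 1 and 2 of 9 dendritic cell genes, 2 and 1 of 5 neutrophil genes, 2 and 0 of 8 T and NK cell genes, and 5 and 1 of 6 B cell genes, so that the monocyte, dendritic cell, neutrophil and T and NK cell counts were not far from those shares. The summed B cell level was 11.6, 91.7 and 5.31 CPM in PRCC-TFE3 KI replicates 1, 2 and 3 against 5.43 to 9.07 CPM in Cre(−), so replicate 2 held most of it and replicate 3 lay below every Cre(−) library. Fibroblast genes were higher in 7 of 9, adipocyte genes in 4 of 6, endothelial genes were lower in 4 of 6, and proximal tubule genes were lower in 8 of 8 (median −4.82). In DKO against PRCC-TFE3 KI (6.53% and 6.19% of all genes), 4 of 9 dendritic cell genes were higher (Clec9a, Flt3, Xcr1 and Batf3), 5 monocyte genes were higher and 2 were lower, and 5 of 8 proximal tubule genes were higher. Itgax and Clec7a are also expressed by dendritic cells and monocytes, and the part of those cells in the higher Itgax and Clec7a of DKO kidneys was not tested.

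**Figure D5:**
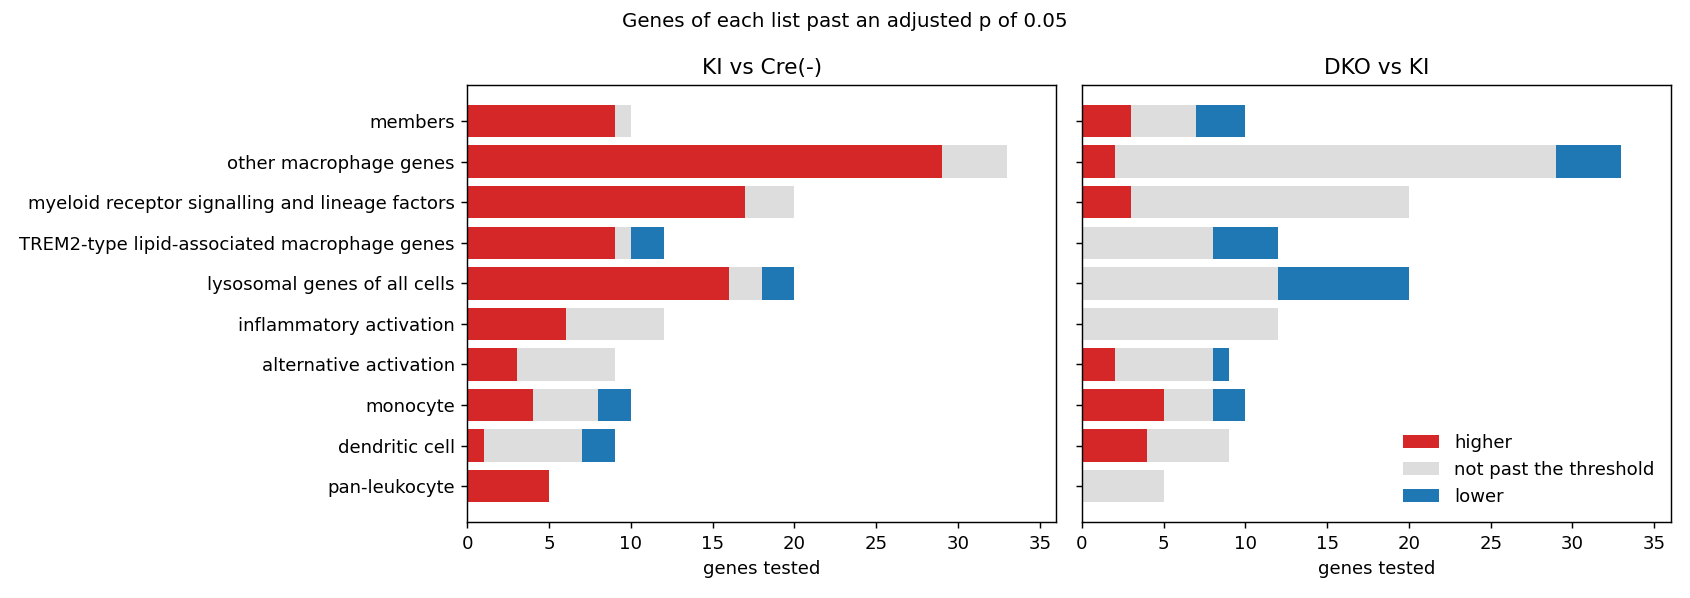
Number of genes tested in each list (stacked bars from 0), split into those higher (red), not past the threshold (grey) and lower (blue) at an adjusted p under 0.05, for PRCC-TFE3 KI against Cre(−) and for DKO against PRCC-TFE3 KI. In the first, the 10 members give 9 higher and 0 lower and the other macrophage genes 29 and 0, and in the second the members give 3 and 3 and the other macrophage genes 2 and 4.

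How far the members moved together was described over the 13 knock-in libraries. Pearson's r of each gene with the mean of all 10 was 0.796 for Lyz2, 0.618 for Adgre1, 0.560 for Csf1r, 0.494 for Clec7a, 0.481 for Mrc1, 0.446 for Itgax, 0.426 for Trem2, 0.0559 for Vsig4, −0.0838 for Cd163 and −0.102 for Cd68. Each gene is part of the mean it was set against, and the libraries of a group share their genotype, so these values are a description. Lyz2 and Adgre1 stood closest to the common course, and Cd68, Cd163 and Vsig4 did not follow it. Outside the list, the 5 genes whose levels were most like that mean were Rab7b (0.887), a small GTPase of late endosomes, Siglec1 (0.827), the sialoadhesin of macrophages, C1qc (0.796), a complement chain made by macrophages, Ttc30a1 (0.791) and Cd84 (0.780), an adhesion receptor of leukocytes.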

How the data were processed

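The authors sequenced stranded mRNA (75 nt single reads) and deposited, per transcript and library, an expected count and a TPM (RSEM per the study's methods). The submitters' processing notes name STAR 2.7.9a, Trim Galore 0.6.6 and cutadapt 2.5. The methods name a human build for alignment, yet the tables list mouse transcripts. Here transcripts were matched to GRCm38 genes (97.8% of 119353) and summed, and sums of expected counts were rounded. edgeR 4.0.16 (R 4.3.3) fitted all 17 libraries at once by the quasi-likelihood test with TMM scaling and filterByExpr (minimum count 10). Replicates were separate samples per group, so p-values measure the spread between them, and intervals and floors cover counting error only. Members were always named, with the 3 largest changes past the threshold per list, genes a member's result turned on, and the 5 most alike genes. Single genes listed as higher or lower in DKO were chosen after their values were seen. Alternatives were DESeq2 1.42.0, its size factors, no filter, 2-group fits, a replicate block, limma 3.58.1 on log2(TPM + 1) or log2(TPM + 0.1), a fold minimum, other control sets, and leaving out each library. On simulated data for PRCC-TFE3 KI against Cre(−) (16739 genes), edgeR called 72.9% of 2-fold and 88.8% of 4-fold changes, with 7.65% of calls false. The simulation changed far fewer genes than the real comparison called, equally up and down and alike in all knock-in libraries. Its rates may therefore not hold for the real data. The members and lists were chosen with earlier results of these data known.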

Additional observations from a re-analysis of the deposited data

Results flagged for a closer look

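Clec7a, the dectin-1 receptor gene, was 14.6 CPM in Hif1α KO replicate 3 and 9.64 to 10.4 CPM in the other 3 libraries of that group. Its gap to the nearest library was 0.849 of the group's whole range, above Dixon's 95% critical value for 4 samples. This was 1 of 20 such checks (10 members in the 2 groups of 4 libraries), and chance passes about 1 in 20. In the same library Ptprc was also the highest of its group, at 71.6 CPM against 27.3, 42.2 and 52.0 CPM.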

How the results depend on the processing

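Of 1263 member values under the alternatives, 1176 kept their direction and side of the threshold, 42 kept the direction but no longer passed, 24 newly passed and 21 turned in sign. The number of members past the threshold between Hif1α KO and PRCC-TFE3 KI (3) was 0 with a minimum log2 difference of 1 and 1 in a fit of the 2 groups alone, and it ran from 0 to 4 when each library was left out. Between Hif2α KO and PRCC-TFE3 KI (0) it was 5 by DESeq2 and 3 by limma on log2(TPM + 1), and 0 to 2 with a library left out. Of all 17011 genes DESeq2 called 532 higher and 483 lower there, and limma 137 and 57. Between DKO and PRCC-TFE3 KI (6) it was 1 in the 2-group fit, where Vsig4 was not tested, and 2 to 6 with a library left out. Between the single knockouts (0) it was 2 by DESeq2 and 0 to 1 with a library left out (1 without Hif2α KO replicate 1). With a library left out, the counts against Cre(−) ran from 8 to 10 for PRCC-TFE3 KI, 8 to 8 for Hif1α KO and DKO, and 8 to 9 for Hif2α KO, and by limma on TPM they were 9 for Hif2α KO and DKO. The cause was not tested.

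None of the values that turned in sign had passed the threshold in the fit of all libraries. On the TPM scale (pseudocounts 1 and 0.1) Csf1r against Cre(−) was 0.068 and 0.070 in PRCC-TFE3 KI, 0.15 and 0.15 in Hif1α KO, and 0.25 and 0.26 in DKO, where the turned values passed the threshold as higher (adjusted p = 0.0177 with both pseudocounts, by limma), and in Hif2α KO, where the sign had been the same, it also passed (0.26 and 0.27). The median of all genes in PRCC-TFE3 KI against Cre(−) moved from 0.03 to 0.38 and 0.48, with 78.2% and 78.5% of called genes higher in place of 51.9%. On the TPM scale this median was 0.353 and 0.451 in Hif1α KO, 0.427 and 0.531 in Hif2α KO, and 0.455 and 0.563 in DKO. Each of these Csf1r values lay below the median of all genes in its comparison. With 1 library left out, Csf1r ran from −0.095 to 0.028 in Hif1α KO and from −0.092 to 0.081 in Hif2α KO against Cre(−), and from −0.13 to 0.051 between the single knockouts. Against PRCC-TFE3 KI, Lyz2 ran from −0.030 to 0.34 and Cd163 from −0.82 to 0.029 in Hif1α KO, Mrc1 from −0.022 to 0.28 and Trem2 from −0.085 to 0.44 in Hif2α KO, and Mrc1 from −0.094 to 0.21 in DKO. Between the single knockouts Adgre1 ran from −0.17 to 0.033 and Vsig4 from −1.83 to 0.35. Vsig4 in DKO against Cre(−) ran from −0.26 to 0.54 and was −0.38 with the Cre(−) libraries that carry floxed Hif1a.

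Replicate numbers did not pair the samples: over 31 pairs of same-numbered libraries the correlation of deviations ran from −0.223 to 0.249, 4 pairs were over 0.1, and 3 of 15 libraries correlated best with their own number. With the replicate block 8 members passed in PRCC-TFE3 KI against Cre(−) (Itgax had an adjusted p of 0.0515), 2 in Hif1α KO against PRCC-TFE3 KI (Adgre1, 0.0553) and 5 in DKO against PRCC-TFE3 KI (Cd163, 0.0505), and the other counts stayed at 8 against Cre(−), 0 in Hif2α KO and 0 between the single knockouts. Counting Trem2 from its protein-coding transcripts only, an alternative chosen after seeing the data, kept the call in PRCC-TFE3 KI against Cre(−) (adjusted p = 3.25e-08) and gave −0.71 in Hif1α KO against PRCC-TFE3 KI (adjusted p = 0.208). Vsig4 and the protein-coding transcripts of Trem2 in Cre(−) lay near or under the floor of 0.117 to 0.206 CPM, which limits their folds.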

Other observations

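Several genes, chosen after their values were seen, varied widely among the 3 PRCC-TFE3 KI mice. Marco was 0.115, 4.85 and 5.99 CPM, Lyve1 was 2.24, 13.1 and 13.5 CPM, and F13a1, the transglutaminase gene of monocytes and resident macrophages, was 7.70, 23.3 and 38.1 CPM. In these 3 genes, as in Cd163 and Vsig4, PRCC-TFE3 KI replicate 1 was the lowest of its group. Marco was at most 0.369 CPM in DKO and 0.658 CPM in Hif2α KO, and Lyve1 was 1.12 to 1.71 CPM in DKO and 2.28 to 3.69 CPM in Hif2α KO. Cd5l had another course, at 3.62, 15.3 and 2.68 CPM in PRCC-TFE3 KI and 4.58, 9.36 and 12.2 CPM in Hif2α KO.

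Clec9a, a receptor of cross-presenting dendritic cells, was 4.73, 7.39, 3.77 and 4.36 CPM in Cre(−), 2.82, 1.56 and 1.14 CPM in PRCC-TFE3 KI and 7.21, 7.69 and 5.76 CPM in DKO kidneys. It was lower in PRCC-TFE3 KI than in Cre(−) (log2 −1.46) and higher in DKO than in PRCC-TFE3 KI (1.90), both past the threshold of edgeR's test, so that it moved against Cd68 in both comparisons.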
